A study of Mus musculus with 12 samples.

Results

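The cytosolic ribosome of the mouse is built from ribosomal RNA and a set of ribosomal proteins, each made from its own gene and each present, with few exceptions, in 1 copy per particle. The genes were chosen by name and type: protein-coding rows of the annotation in the deposited counts with a symbol of the form Rpl or Rps and a number, together with Rplp0, Rplp1, Rplp2, Rpsa and Fau, and without the S6 kinases. No measured value entered that rule. The family itself was picked with earlier results of these counts known, so its tests describe these libraries and are not independent support. It took in 83 of the 54532 rows, of which 50 encode proteins of the large (60S) subunit and 33 of the small (40S) subunit.

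The counts came from whole livers of male mice with floxed Pparg alleles. Mice labelled KO received AAV8-TBG-Cre, a viral vector with a hepatocyte promoter, and littermates labelled WT received AAV8-TBG-eGFP, so that both groups carried the floxed alleles and a vector. Injection was at 8 weeks of age. All mice ate a fast-food diet, with fructose and glucose in the drinking water, for 2 or 5 months, and 3 libraries were made for each of the 4 groups. Totals per library ran from 16367775 to 27452284 counts. No library from mice on a control diet was analysed here, the labels do not say that libraries of 1 group came from separate animals, and the p-values measure only the spread between these libraries. A chi-square per gene measured how far replicates differed relative to counting error. It was 2.44 between WT replicates 2 and 3 of 5 months and 9.4 to 31.7 between all other pairs of replicates. Whether those WT libraries were independent was not tested.

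Pparg, the targeted gene, had more counts in the libraries labelled KO than in those labelled WT. Its level was 38.8, 41.4 and 37.6 CPM (counts scaled to a common library size) in WT and 50.4, 66.5 and 52.0 CPM in KO at 2 months, and 36.9, 41.4 and 37.1 CPM in WT and 86.5, 92.9 and 75 CPM in KO at 5 months. The groups did not overlap at either time (log2 fold change 0.52, adjusted p = 0.0309, and 1.15, adjusted p = 2.57e-06). A count summed over a whole gene includes any transcript left after floxed exons are removed, so it does not check the deletion. The study itself reported, from Western blots of liver lysates, that PPARγ protein was efficiently depleted in KO at both times. Of 4 known targets of PPARγ examined, 3 were lower in the libraries labelled KO at both times: Cidec, a lipid-droplet protein, had log2 fold changes of -3.85 and -2.70 at 2 and 5 months (adjusted p = 0.0117 and 2.91e-06), and Plin2, another lipid-droplet protein, had -0.73 and -0.75 (adjusted p = 0.0110 and 1.24e-05). Mogat1, an enzyme of triglyceride synthesis, had -2.25 and -1.60 (adjusted p = 0.00606 and 9.23e-05). The fourth, the fatty acid transporter Cd36, passed at neither time (-0.81, adjusted p = 0.0758, and -0.07, adjusted p = 0.465). WT and KO below mean the libraries as labelled.

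Ribosomal protein genes are transcribed together in most cells, and their messages begin with a run of pyrimidines, the 5′ terminal oligopyrimidine (TOP) tract, through which mTORC1 and the RNA-binding protein LARP1 control their translation and stability. Several also act away from the ribosome. Rpl5 and Rpl11, with 5S ribosomal RNA, bind Mdm2 and so stabilise p53. Rps6 is the classic substrate of the S6 kinases. Rpsa doubles as a laminin receptor, Rplp0, Rplp1 and Rplp2 form the stalk that recruits elongation factors, and Fau and Rps27a are made as fusions with a ubiquitin-like protein and ubiquitin.

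Promoters were found for 63 of the 83 genes, as 75 annotated starts, in a RefSeq promoter table of GRCm38.p6, the assembly that mm10 names. The windows of 8 genes are shown because their results are described below, and all were picked from starts that hold a run of pyrimidines. Such a run was found for 31 of the 63 genes. The windows of Rpsa, Rplp0, Rpl5 and Rps3, which are also described below, held none. Each window holds the 10 bases before the annotated start and the 20 bases from it, 5′ to 3′ on the coding strand, and capitals mark the run of C and T. Rplp2 is a stalk protein, Rpl35 rose among the most and Rps27 fell the most at 5 months in KO, Rps24 was called in the difference between the times, and Rps10 is a gene whose own row did not rise.
Fau, chr19:6057937-6057966, plus strand: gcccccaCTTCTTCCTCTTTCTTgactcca
Rps6, chr4:86857348-86857377, minus strand: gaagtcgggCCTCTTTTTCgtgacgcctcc
Rplp2, chr7:141447641-141447670, plus strand: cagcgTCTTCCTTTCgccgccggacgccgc
Rpl13a, chr7:45128726-45128755, minus strand: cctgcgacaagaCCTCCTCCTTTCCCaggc
Rpl35, chr2:39005112-39005141, minus strand: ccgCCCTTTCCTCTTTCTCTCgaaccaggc
Rps24, chr14:24490668-24490697, plus strand: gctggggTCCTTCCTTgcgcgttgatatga
Rps27, chr3:90213629-90213658, minus strand: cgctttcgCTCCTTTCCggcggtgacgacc
Rps10, chr17:27635225-27635254, minus strand: gcgcacgCCCCTTCCTTTCCagcctccgcc

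A run of 8 or more C or T overlapping that window was present at 32 of the 75 starts of the family (42.7%) and at 16.9% of all 32851 starts in the table. The table places some starts away from the tract, so an absent run says only that these letters are not in this window. CCGGAA, the core of ETS-factor sites, was found on either strand of the 300 bases around the start at 35 of the 75 starts (46.7%, against 14.9% of all). AAGATGGC, the core of the YY1 site, was found at 8 (10.7%, against 2.75%) and CACGTG, the E-box bound by MYC and its partners, at 8 (10.7%, against 7.15%). The TATA letters TATAAA stood at 6 (8%, against 13.6%). A strict DR1 repeat, the form of a PPAR element, was found at 0 of the 75 and at 0.0396% of all starts, and nothing follows from this about PPARγ itself. Some starts held more than 1 of these: the pyrimidine run and CCGGAA stood together at 19 starts.

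Of the 83 genes, 80 had enough counts to be tested in each comparison, and they were the same 80 genes with a count in every library. Rpl10l, the testis copy of Rpl10, had 0 counts in all 12 libraries. Rpl39l had 0 to 2 counts and Rpl3l, the heart and muscle copy of Rpl3, 0 to 15 counts per library, and none of the 3 was tested. Divided by gene length, the mean level of the 80 tested genes over the 12 libraries ran from 0.569 CPM per kb (Rps10) through a median of 70.0 to 596 CPM per kb (Rplp1). Among the 80, Rplp1, Rps3a1 and Rps2 had the highest levels per kb (596, 302 and 256), and Rps10, Rpl36al and Rpl24 the lowest (0.569, 0.859 and 1.75). The spread does not mean that the proteins differ in amount: reads of these short messages also match other genes. A median of 31.9% of the 75-base windows in the transcripts of the 80 genes also occurred in a transcript of another gene in GENCODE vM21, and the highest value was 89.2%, for Rpl35. Pseudogene rows named after these genes held 4.06% to 4.94% as many counts as the genes themselves.

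The share of all counts on the family was near 0.9% at 2 months and higher at 5 months, most of all in WT. At 2 months it was 0.886%, 0.879% and 0.861% in WT and 0.830%, 0.833% and 0.849% in KO. At 5 months it was 1.556%, 1.673% and 1.665% in WT and 1.271%, 1.241% and 1.229% in KO. The 4 groups did not overlap. The mean share was 0.875% ± 0.0129 in WT at 2 months, 0.837% ± 0.0102 in KO at 2 months, 1.631% ± 0.0654 in WT at 5 months and 1.247% ± 0.0216 in KO at 5 months (SD, n = 3 each). From 2 to 5 months it was 1.864 times higher in WT and 1.490 times in KO, and KO stood at 0.956 of WT at 2 months and at 0.765 of WT at 5 months. In whole liver, fewer cells of a type and less RNA per cell cannot be told apart.

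**Figure D1:**
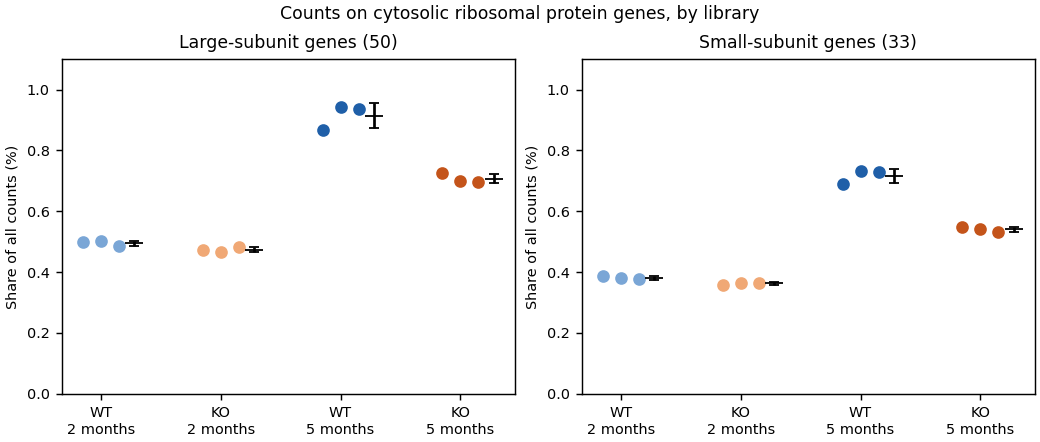
Share of all counts (percent, linear axis from 0) on the 50 large-subunit genes (left) and the 33 small-subunit genes (right) in each of the 12 libraries; points are libraries, and the bar beside them is the mean with its SD (n = 3). Both subunits had their highest shares in WT at 5 months (mean 0.914% and 0.716%), with KO at 5 months between those and the 2-month groups.

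The first comparison was of time on the diet in WT, 5 against 2 months. Of the 80 genes, 77 were higher at 5 months and 0 lower at an adjusted p under 0.05 in edgeR's quasi-likelihood test, where 23.8% of all 14491 genes tested were higher and 22.7% lower. The median log2 fold change over the family was 1.02, which is 2.03-fold, against -0.01 over all genes, and the interquartile range of the family lay between 0.79 and 1.22. DESeq2 also called 77 higher and 0 lower, and 1 gene, Rps10, was lower at an unadjusted p under 0.05 in edgeR, as were 26.6% of all genes. The 2 age groups did not overlap, with 5 months above, for 79 of the 80 genes, where 28.7% of all genes did the same. The subunits had nearly the same medians, 1.03 over the 47 tested large-subunit genes and 1.01 over the 33 small-subunit genes. Time on the diet, the age of the mouse and any difference in handling between the times cannot be told apart.

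The stalk and p53-linked genes show the size of the change. Rplp1 (chromosome 9, 61913284 to 61914542, minus strand), a stalk protein, had 210, 218 and 204 CPM in the WT libraries at 2 months and 445, 433 and 431 CPM at 5 months. All 3 later libraries were above all 3 earlier ones, and the log2 fold change was 1.05 with an SE of 0.0766 (adjusted p = 4.58e-06). Rplp0, the base of the stalk, changed by 0.78 (adjusted p = 3.85e-05) and Rplp2, which pairs with Rplp1, by 0.69 (adjusted p = 3.46e-05). Rpl11 (chromosome 4, 136028265 to 136053428, minus strand) went from 111, 113 and 112 CPM to 311, 292 and 298 CPM, a log2 fold change of 1.42 with an SE of 0.0726 (adjusted p = 1.36e-06). Its partner Rpl5 changed by 0.85 (adjusted p = 1.75e-05).

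Other genes with known second roles rose by amounts near the family's median. Rpsa (chromosome 9, 120127689 to 120132369, plus strand) had 247, 227 and 239 CPM at 2 months and 474, 480 and 488 CPM at 5 months, a log2 fold change of 1.01 (SE 0.0790, adjusted p = 6.6e-06). Rps6 (chromosome 4, 86854660 to 86857412, minus strand) had 192, 183 and 184 CPM and then 332, 350 and 347 CPM, a log2 fold change of 0.88 (SE 0.0755, adjusted p = 1.13e-05). Fau, whose tract is the first one shown above, rose by 1.07 (adjusted p = 8.82e-06) and Rpl13a, part of the GAIT complex that silences translation, by 1.17 (adjusted p = 5.42e-05) at a low level of 5.99 CPM ± 0.572 rising to 13.5 ± 0.520 (SD, n = 3).

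The 5 largest rises in WT were those of Rpl24, Rpl30, Rpl35, Rps28 and Rpl41. Rpl30 (chromosome 15, 34440505 to 34443640, minus strand) rose from 34.6, 26.4 and 27.9 CPM to 131, 125 and 123 CPM, a log2 fold change of 2.09 (SE 0.103, adjusted p = 1.27e-06). Rpl35 rose by 1.77 (adjusted p = 4.63e-07), Rps28 by 1.75 (adjusted p = 1.11e-06) and Rpl41, which encodes the smallest ribosomal protein, by 1.66 (adjusted p = 2.15e-05). Rpl24 had the largest value, 2.77 (SE 0.274, adjusted p = 2.54e-05), on few reads: its row held 5 to 72 counts per library, and 80.9% of its windows also occurred in transcripts of other genes.

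The same comparison in KO gave a smaller median rise. Of the 80 genes, 74 were higher at 5 months and 1 lower, where 22.7% of all 14478 genes tested were higher and 22.2% lower. The median log2 fold change was 0.69, which is 1.61-fold, with an interquartile range from 0.47 to 0.85. The groups did not overlap, with 5 months above, for 75 genes, where 28.2% of all genes did the same. Large- and small-subunit genes had medians of 0.68 and 0.69.

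In KO, Rplp1 had 225, 231 and 222 CPM at 2 months and 317, 321 and 311 CPM at 5 months, a log2 fold change of 0.48 (SE 0.0539, adjusted p = 4.28e-05). Rpl11 went from 113, 108 and 119 CPM to 230, 215 and 222 CPM, a log2 fold change of 0.97 (SE 0.0595, adjusted p = 1.22e-06). Both genes were higher in every later library, and in both the KO value was below the WT value. Rpl24, Rps28, Rpl30, Rpl35 and Rpl21 had the 5 largest rises in KO, of 2.35, 1.54, 1.52, 1.48 and 1.28, with adjusted p-values of 0.00104, 1.27e-06, 1.75e-06, 2.57e-07 and 0.0306. All but Rpl21 were also among the 5 largest in WT. The call of Rpl21 was lost without KO replicate 1 or 3 of either time, without the filter and with the replicate block.

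The gene lower in KO at 5 months was Rps27a, one of the genes that encode ubiquitin as a fusion. It had 79.0, 82.6 and 86.7 CPM at 2 months and 70.7, 60.4 and 77.4 CPM at 5 months, which do not overlap (log2 fold change -0.26, SE 0.0865, adjusted p = 0.0317). The call was lost without KO replicate 2 or 3 of 2 months, without KO replicate 1 or 2 of 5 months, and when all 12 libraries shared 1 fit. In WT the same gene had 83.2, 30.2 and 58.1 CPM at 2 months and 88.4, 117 and 86.0 CPM at 5 months (log2 fold change 0.77, SE 0.414, adjusted p = 0.202). Its WT libraries at 2 months spread over a wide range, and 58.2% of its windows occurred in transcripts of other genes.

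The 2 time comparisons share no library. Across the 80 genes, the log2 fold changes in WT and in KO had a Pearson r of 0.878 and a Spearman rho of 0.844, and over the 14118 genes tested in both, r was 0.752. These are descriptions over genes, which are not replicates, and a gene's length, sequence copies and level are the same in both. The WT value was the larger for 78 of the 80 genes, the others being Rps10 and Rpl7a.

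**Figure D2:**
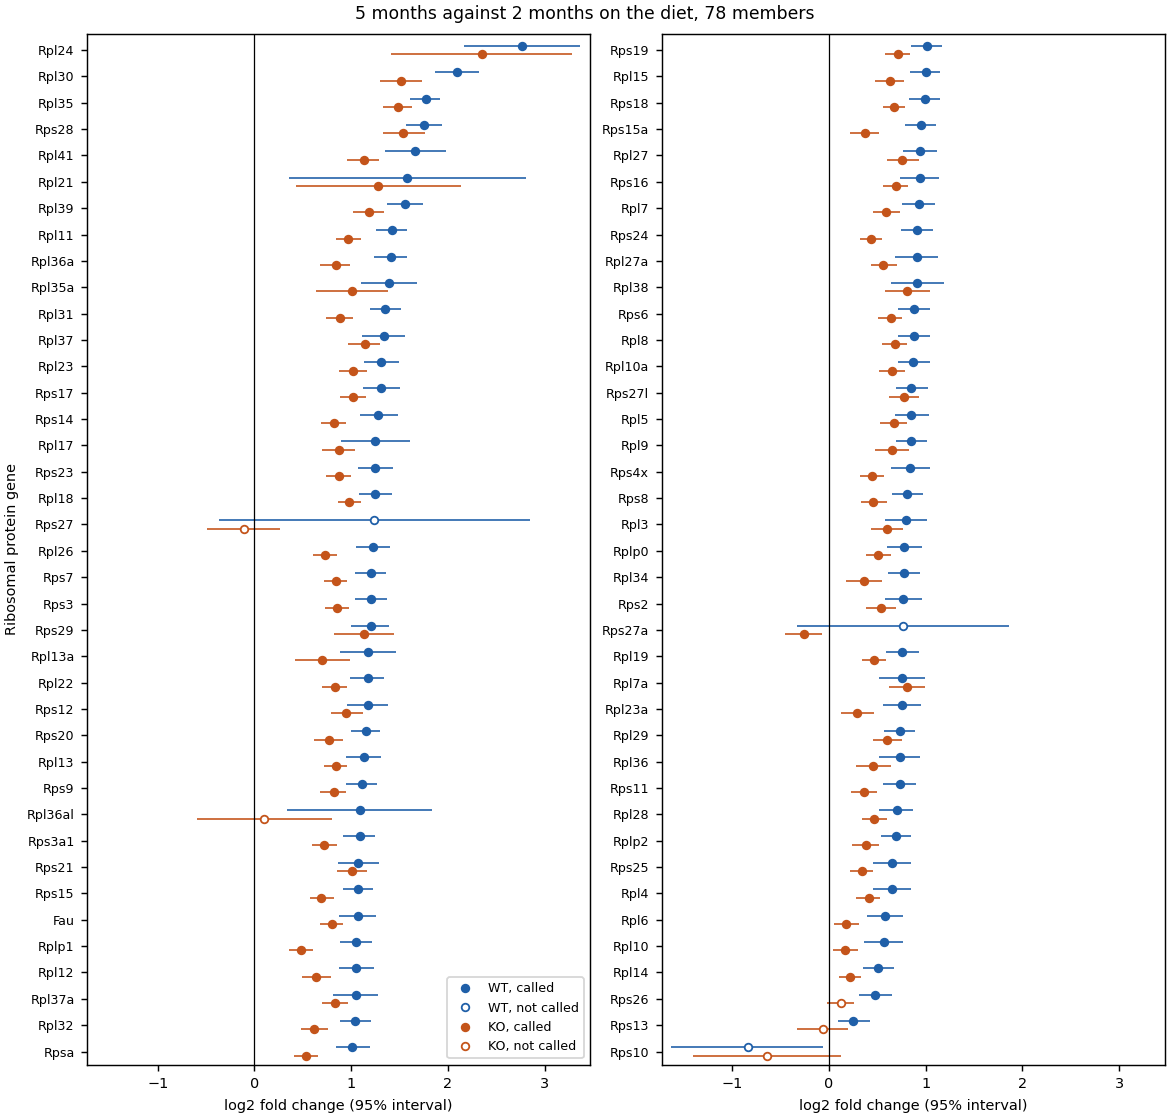
Log2 fold change from 2 to 5 months, with 95% intervals, for 78 of the 80 tested genes in WT (blue) and KO (orange), sorted by the WT value; filled points passed an adjusted p of 0.05 in edgeR. Values in WT run from -0.84 (Rps10) to 2.77 (Rpl24), and most orange points lie to the left of the blue point of the same gene.

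KO was then compared with WT at each time. At 2 months edgeR called 0 of the 80 genes higher in KO and 0 lower, where 1.78% of all 14573 genes tested were higher and 1.78% lower. The median log2 fold change was -0.01, with 38 genes above 0 and 42 below. An unadjusted p under 0.05 was reached by 2 genes in edgeR, Rps19 and Rpl29, both lower, where 9.52% of all genes were lower by that measure, and by 1 in DESeq2, Rps19, and DESeq2 also called 0 genes after adjustment. The groups did not overlap for 3 genes with KO higher and 4 with KO lower, where the shares over all genes were 12.1% and 12.0%. Rps19, a gene mutated in Diamond-Blackfan anaemia, had 80.1, 81.4 and 74.8 CPM in WT and 67.7, 69.7 and 66.8 CPM in KO (log2 fold change -0.21, 95% interval -0.36 to -0.06, adjusted p = 0.120).

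For abundant genes the 2-month intervals were narrow. Rplp0 differed by -0.00 with a 95% interval of -0.18 to 0.17, Rpl11 by 0.01 (-0.13 to 0.16), Rps6 by -0.04 (-0.19 to 0.12) and Rpsa by 0.05 (-0.11 to 0.21). The intervals were wide for Rps27 (0.13, -1.47 to 1.73) and Rps27a (0.54, -0.46 to 1.53), where the WT libraries spread. A p above the threshold does not show that the groups were alike.

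At 5 months 65 of the 80 genes were lower in KO and 0 higher, where 9.51% of all 14138 genes tested were lower and 8.90% higher. The median log2 fold change was -0.31, so that the median gene stood at 0.804 of its WT level, and the interquartile range ran from -0.41 to -0.26. KO was below WT without overlap for 71 of the 80 genes, where 19.0% of all genes did the same. Of the 47 large-subunit genes 39 were lower, and of the 33 small-subunit genes 26, with medians of -0.30 and -0.32. DESeq2 called 64 lower and 0 higher, and 0 genes were higher at an unadjusted p under 0.05 in either tool, where 14.9% of all genes were in edgeR. Leaving out 1 library at a time gave 44 to 68 genes.

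The 5 largest falls at 5 months were those of Rps27, Rpl24, Rpl30, Rpl41 and Rps19. Rps27 (chromosome 3, 90212522 to 90213651, minus strand), also called metallopanstimulin, had 96.7, 98.8 and 91.02 CPM in WT and 37.8, 50.4 and 34.5 CPM in KO, a log2 fold change of -1.21 (SE 0.126, adjusted p = 0.000282). All 3 KO libraries stood near the 2-month KO values of 38.7, 49.9 and 44.0 CPM, and the change of Rps27 over time in KO was -0.11 (95% interval -0.49 to 0.26, adjusted p = 0.598). Its WT libraries at 2 months had 64.9, 13.4 and 43.0 CPM, so that the rise over time in WT (1.24, SE 0.595) did not pass the test (adjusted p = 0.164). Without WT replicate 2 of 2 months, it passed. The 5-month call of Rps27, and that of Rpl24 (-0.81, adjusted p = 0.0114), was lost when all 12 libraries shared 1 fit. Of the windows of Rps27, 42.4% occurred in transcripts of other genes. Rps27rt, a ribosomal gene outside the name rule, had 24.0 CPM in WT and 37.9 CPM in KO at 5 months. Its log2 fold change was 0.67 (SE 0.241, adjusted p = 0.132), and the division of reads between these genes was not tested.

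Rpl30 had 131, 125 and 123 CPM in WT and 93.1, 90.4 and 72.2 CPM in KO at 5 months (log2 fold change -0.56, SE 0.0858, adjusted p = 0.000663). Rpl41 had 419, 367 and 372 CPM in WT and 296, 254 and 257 CPM in KO (-0.51, SE 0.0789, adjusted p = 0.00066). Rps19, whose groups did not overlap at 2 months either, had 160, 159 and 158 CPM in WT and 116, 111 and 107 CPM in KO (-0.50, SE 0.0596, adjusted p = 0.000106). In all 3, every KO library was below every WT library of the same age and above every 2-month library.

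Among the genes with second roles, Rplp1 was lower in KO at 5 months, with a log2 fold change of -0.45 (SE 0.0617, adjusted p = 0.000272), Rplp2 with -0.31 (adjusted p = 0.0047) and Rplp0 with -0.26 (adjusted p = 0.0124). Rpl11 differed by -0.42 (adjusted p = 0.000451), and its partner Rpl5 by -0.19 without passing (95% interval -0.34 to -0.04, adjusted p = 0.0737). Rpsa had -0.41 (adjusted p = 0.000634), Rps6 -0.26 (adjusted p = 0.0106) and Fau -0.29 (adjusted p = 0.00473). The calls of Rplp0 and Rps6 were lost without WT replicate 2 or 3 or KO replicate 3, and that of Rpl13a (-0.32, adjusted p = 0.0484) without any 1 of the 6 libraries, with DESeq2 or its size factors, without the filter, with the replicate block and in the joint fit. Of the further genes examined, Rps20 had -0.47 (adjusted p = 0.000366), Rpl31 -0.47 (adjusted p = 0.000188), Rps12 -0.43 (adjusted p = 0.000505), Rpl12 -0.34 (adjusted p = 0.00843) and Rps25 -0.32 (adjusted p = 0.00299). Rps12 and Rps25 are small-subunit proteins, and Rps25 is needed by some viral internal ribosome entry sites. The call of Rpl12 was lost without WT replicate 3 or KO replicate 3.

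**Figure D3:**
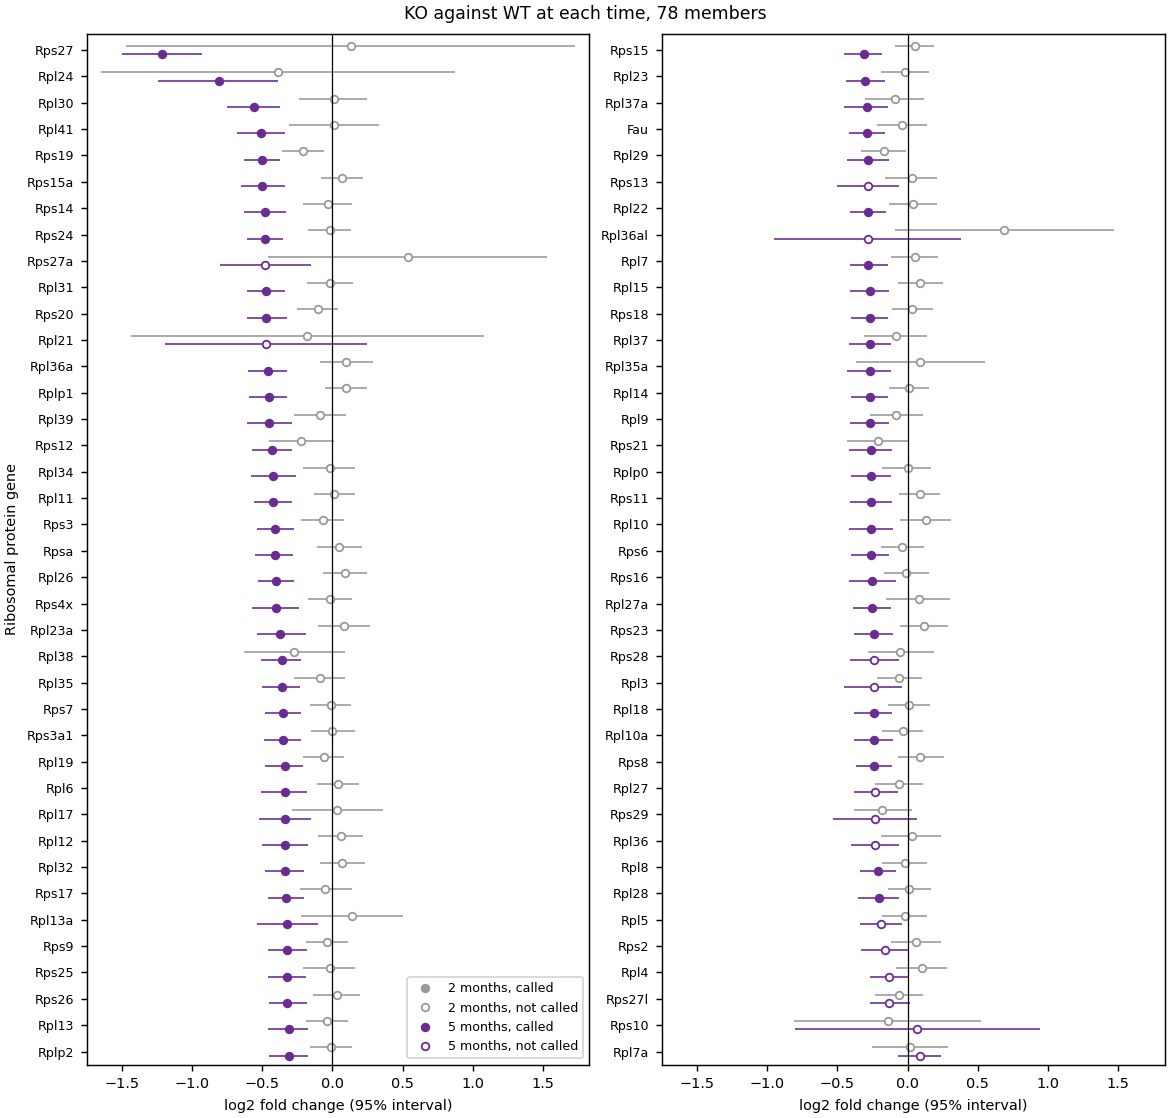
Log2 fold change of KO against WT, with 95% intervals, at 2 months (grey) and 5 months (purple) for 78 of the 80 tested genes, sorted by the 5-month value; filled points passed an adjusted p of 0.05 in edgeR. No grey point is filled, most purple points are, and all purple points but those of Rps10 and Rpl7a lie below 0.

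The 15 genes not called lower at 5 months were Rpl3, Rpl4, Rpl5, Rpl7a, Rpl21, Rpl27, Rpl36, Rpl36al, Rps2, Rps10, Rps13, Rps27a, Rps27l, Rps28 and Rps29, and 13 of them had a value below 0. Rpl7a, which lies beside Surf1 in the surfeit locus, had 50.5, 48.1 and 55.1 CPM in WT and 56.7, 51.3 and 54.1 CPM in KO (log2 fold change 0.09, 95% interval -0.07 to 0.24, adjusted p = 0.464). Its rise over time was 0.75 in WT and 0.81 in KO. It was singled out after its values were seen, and 77.4% of its windows occur in other genes. Rps2, among the most abundant per kb, had -0.16 (95% interval -0.33 to 0.01, adjusted p = 0.178).

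Whether the KO effect at 5 months differed from that at 2 months was tested as 1 term in a fit of all 12 libraries. It was lower at 5 months for 13 of the 80 genes and higher for 0, where 0.912% of all 15127 genes tested were lower and 0.661% higher. The median difference was -0.33 on the log2 scale, and 78 of the 80 genes were below 0. The 13 genes were Rpl11, Rpl26, Rpl31, Rpl32, Rpl36a, Rplp1, Rps3a1, Rps7, Rps14, Rps15, Rps15a, Rps24 and Rpsa, and all 13 were among the 65 lower at 5 months. Rplp1 had the smallest adjusted p, with a difference of -0.57 (SE 0.0854, adjusted p = 0.00464), and Rps15a (-0.57) and Rpl36a (-0.57) had the same size. Rplp1, Rps15a, Rps24, Rpl26 and Rpl36a were called in each of the 20 alternative fits as well. With a replicate block 9 genes were called, 8 of them among the 13, and the calls of Rpl32, Rps3a1, Rps7, Rps14 and Rps15 were lost.

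The number called in this difference depended on single libraries. It was 33 without WT replicate 1 of 2 months, 8 without WT replicate 2 or 3 or KO replicate 3 of 2 months, 7 without WT replicate 2 or KO replicate 2 or 3 of 5 months, and 5 without WT replicate 3 of 5 months. DESeq2 called 37 lower and 0 higher, a fit without a filter on low counts called 28 lower, and 58 genes, all lower, had an unadjusted p under 0.05 in edgeR, where 7.87% of all genes were lower by that measure. Genes named above with a larger value but a wide interval were Rps27 (-1.35, 95% interval -2.80 to 0.10, adjusted p = 0.370) and Rps27a (-1.02, -2.02 to -0.02, adjusted p = 0.323).

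Rps10 had values of its own among the 80 and was singled out after they were seen. Its row held only 9 to 42 counts per library, with 1.86, 1.49 and 1.83 CPM in WT at 2 months and 0.533, 1.34 and 0.992 CPM at 5 months (log2 fold change -0.84, SE 0.356, adjusted p = 0.0735). The 4 pseudogene rows named after it held 488 to 884 counts per library, which is 96.3% of the counts on the gene and those rows. With those counts added, the log2 fold change over time was 0.53 in WT (adjusted p = 0.000368) and 0.21 in KO (adjusted p = 0.0319), and that of KO against WT at 5 months was -0.41 (adjusted p = 0.00125). For Rpl21, with 48.4% of counts on pseudogene rows, adding them gave -0.43 at 5 months (adjusted p = 0.0172) in place of -0.47 (adjusted p = 0.336).

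Rps13 and Rps26 had the smallest rises in WT among the genes called, and were chosen after their values were seen. Rps26 had 113, 102 and 109 CPM and then 144, 152 and 154 CPM in WT (log2 fold change 0.48, SE 0.0755, adjusted p = 0.000483). In KO it had 109, 104 and 118 CPM and then 119, 122 and 118 CPM (0.12, 95% interval -0.02 to 0.26, adjusted p = 0.143). Rps13 changed by 0.25 in WT (adjusted p = 0.0175) and was at -0.06 in KO (95% interval -0.33 to 0.20, adjusted p = 0.683). The WT call of Rps13 was lost without WT replicate 3 of either time and with library size alone, and Rps26 was called in KO without KO replicate 3 of 2 months.

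The copies with an l suffix could be set beside their parents where both were measured. Rps27l, a p53-induced copy of Rps27 with 8.1% of its windows in other genes, had 90.1, 89.5 and 90.3 CPM in WT at 2 months and 176, 153 and 159 CPM at 5 months (log2 fold change 0.85, SE 0.0756, adjusted p = 1.29e-05). In KO it rose by 0.78 (adjusted p = 9.96e-06), and at 5 months KO and WT differed by -0.13 (95% interval -0.27 to 0.02, adjusted p = 0.238), where Rps27 had -1.21. The difference between the 2 copies was not tested. Rpl36al had 0.618 to 1.865 CPM over all libraries and Rpl36a 28.2 to 83.4 CPM, and Rpl36a rose by 1.41 in WT (adjusted p = 1.63e-06), rose by 0.84 in KO (adjusted p = 6.74e-06) and was lower in KO at 5 months (-0.46, adjusted p = 0.000368).

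Reads shared between copies bear least on 12 tested genes with under 10% of windows in other genes, a set taken after the data were seen, among them Rpl4, Rpl8, Rpl22, Rpl34, Rpl39, Rps3, Rps9, Rps15a, Rps20, Rps21 and Rps27l. All 12 rose in WT (median 1.09) and all 12 in KO (median 0.80), and 10 of the 12 were lower in KO at 5 months (median -0.36), with 0 called at 2 months (median -0.05). Over all genes tested, 23.8% were higher in WT over time, 22.7% higher in KO and 9.51% lower in KO at 5 months. At 2 months 1.78% of all genes were higher and 1.78% lower. Rps3 (chromosome 7, 99477896 to 99483738, minus strand), which has no window in another gene and also acts in DNA repair, had 164, 163 and 156 CPM in WT and 146, 154 and 159 CPM in KO at 2 months. At 5 months it had 364, 374 and 372 CPM in WT and 280, 282 and 270 CPM in KO. Its rise was 1.20 in WT (adjusted p = 2.3e-06) and 0.85 in KO (adjusted p = 1.71e-06), and its difference at 5 months was -0.41 (adjusted p = 0.00059).

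Genes of the family have short coding sequences, and other genes with short coding sequences had positive medians over time in both genotypes. Among other genes with a coding length up to 300 bases the median log2 fold change from 2 to 5 months was 0.61 in WT and 0.49 in KO, and it went down step by step to -0.29 and -0.23 over 2000 bases. For KO against WT at 5 months the median went the other way, from -0.12 up to 300 bases to 0.04 over 2000 bases. In those 2 bins, 14.4% and 6.84% of genes were called lower. The median difference between the times was -0.11 and 0.05 in the same 2 bins. The 1576 other genes between the family's 5th and 95th percentiles of gene length (689 to 4100 bases) and level (31.9 to 332 CPM) had medians of 0.28 in WT and 0.22 in KO, and 53.6% and 51.0% of them were higher. For 971 genes matched in the same way on coding length (209 to 891 bases) and level, a choice made after the data were seen, the medians were 0.38 and 0.30, and 63.1% and 60.1% were higher. At 5 months the matched genes had medians of -0.01 and -0.04 for KO against WT, with 12.2% and 12.8% lower. The part of length in the change of the family over time, or in its difference between KO and WT, was not tested.

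**Figure D4:**
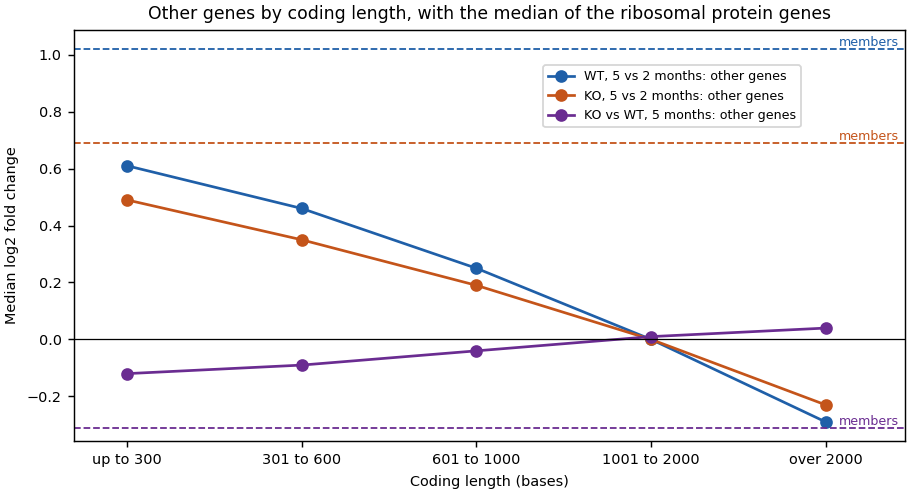
Median log2 fold change of other genes (points and solid lines) in bins of coding length in bases, for 5 against 2 months in WT (blue) and KO (orange) and for KO against WT at 5 months (purple); dashed lines are the medians of the 80 ribosomal protein genes. Bins hold 229 to 4994 genes in WT over time, and the family's medians (1.02, 0.69 and -0.31) lie outside the medians of every bin.

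Within the family, too, shorter coding sequences went with larger rises: Spearman's rho between coding length and the log2 fold change was -0.367 in WT and -0.272 in KO over the 80 genes. For KO against WT at 5 months it was 0.227. With gene length as the files give it, the values were -0.0687, -0.0910 and -0.0795. These are descriptions over genes that share libraries.

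Gene lists near the family in function are given by their counts and medians, without a test between lists. Over all genes tested, 23.8% were higher and 22.7% lower in WT over time, and 22.7% and 22.2% in KO. For KO against WT at 5 months, 8.90% were higher and 9.51% lower. The mitochondrial ribosomal proteins, which build the separate ribosome of the organelle, had 56 of 77 tested genes higher and 1 lower in WT over time (median 0.50), and 57 higher and 1 lower in KO (median 0.39). At 5 months 3 of the 77 were lower in KO (3.9%, below the 9.51% of all genes, median -0.04). They were Mrps28 (-0.26, adjusted p = 0.0371), Mrpl54 (-0.26, adjusted p = 0.0474) and Mrpl52 (-0.23, adjusted p = 0.0316). Mrpl27, Mrps16 and Mrpl46 rose most in WT, by 0.96, 0.96 and 0.93 (adjusted p = 5.43e-06, 9.85e-05 and 8.23e-05).

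Of 20 other messages known to begin with a TOP tract, 15 were higher in WT over time (median 0.56), and 14 higher and 1 lower in KO (median 0.35). At 5 months 6 were lower in KO, and 19 of the 20 values were below 0 (median -0.15). Vim, the mesenchymal intermediate filament, had -0.84 (adjusted p = 0.000913), Nap1l1, a histone chaperone, -0.54 (adjusted p = 0.00118), and Tpt1, a growth-related calcium-binding protein, -0.38 (adjusted p = 0.00172). Tpt1 was also lower in the difference between the times (-0.46, adjusted p = 0.0267). Nap1l1 was the gene of the list already lower at 2 months (-0.74, adjusted p = 0.00549). Of the 8 snoRNA host RNAs tested, which carry a TOP tract but are not translated, 3 rose in each genotype, Snhg8, Zfas1 and Gas5, but 5 of the 8 values in WT were below 0 (median -0.07, and 0.16 in KO), and the median for KO against WT at 5 months was 0.00.

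Among 40 initiation and elongation factors, 23 were higher and 2 lower in WT over time (median 0.27) and 21 higher and 3 lower in KO (median 0.20). At 5 months 3 of the 40 were lower in KO and 0 higher (median -0.06), where 9.51% of all genes were lower. They were Eif3i (-0.30, adjusted p = 0.0143), Eef1b2 (-0.25, adjusted p = 0.0115) and Eif3f (-0.19, adjusted p = 0.0453). Of 52 ribosome biogenesis factors, 17 were higher and 4 lower in WT (median 0.17), and 18 higher and 1 lower in KO (median 0.16), and Eif6, which keeps new 60S subunits from joining, had the largest rise in both (0.86, adjusted p = 1.23e-05, and 1.04, adjusted p = 2.12e-06). At 5 months 1 of the 52 was higher and 4 were lower in KO (median -0.05), where 9.51% of all genes were lower. Among the 4 were Nop56 (-0.35, adjusted p = 0.0318) and Nip7 (-0.34, adjusted p = 0.0246). For RNA polymerase I and its factors, which make ribosomal RNA, 2 of 12 were higher and 5 lower in each genotype over time (medians -0.34 and -0.24).

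The mTORC1, LARP1 and MYC genes had 9 of 34 higher and 10 lower in WT over time (median 0.03), and 11 higher and 9 lower in KO (median 0.09). Over all genes the shares were 23.8% higher and 22.7% lower in WT, and 22.7% and 22.2% in KO. At 5 months 5 were higher and 2 lower in KO (median 0.05), where 8.90% of all genes were higher and 9.51% lower. The 3 called genes with the largest absolute changes are named. Ddit4, an inhibitor of mTORC1, had 19.6 CPM in WT and 60.9 CPM in KO (log2 fold change 1.65, adjusted p = 6.6e-06), Mnt, a MYC antagonist, had 0.70 (adjusted p = 0.000798) and Myc -0.52 (adjusted p = 0.0446). Their part in the level of the ribosomal protein genes was not tested. Of 16 ribosome rescue and quality control genes, 1 was higher and 5 lower in WT over time, and 3 were higher in KO at 5 months, among them Map3k20 (0.40, adjusted p = 0.0107), the kinase that senses collided ribosomes. Of 5 ribosomal genes left out by the name rule, 4 rose in each genotype (medians 0.74 and 0.55). Rack1, a scaffold on the 40S subunit, rose by 0.74 in WT and 0.43 in KO and was lower in KO at 5 months (-0.29, adjusted p = 0.0056).

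**Figure D5:**
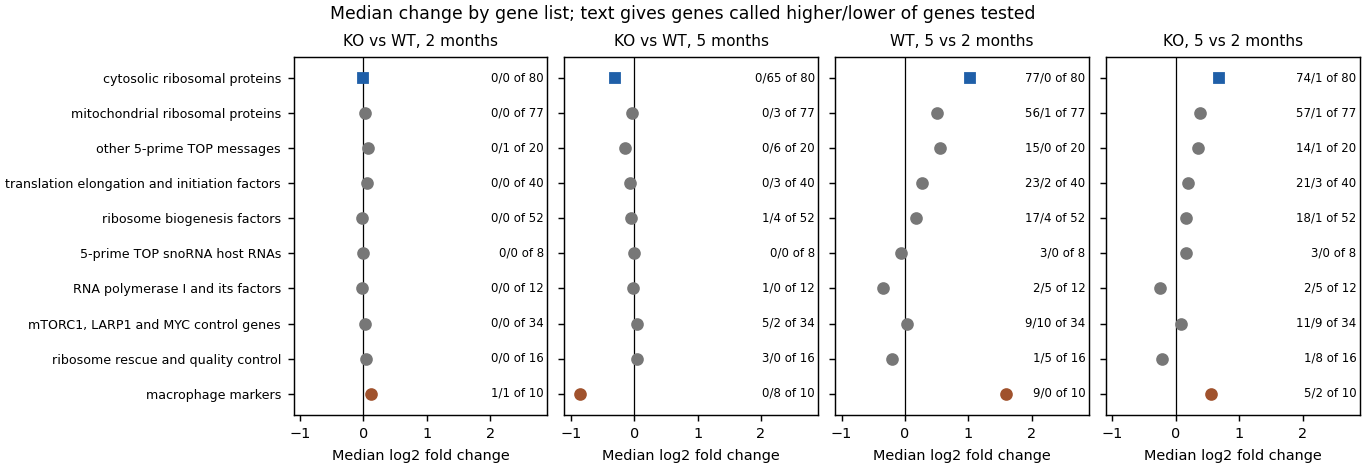
Median log2 fold change (horizontal axis) of the ribosomal protein genes (blue squares), of related gene lists (grey) and of macrophage markers (brown) in 4 comparisons; the text at the right gives the number of genes called higher and lower of those tested. Apart from the macrophage markers (1.59 in WT over time and -0.86 at 5 months), the family's median lies furthest from 0 of the lists plotted in both time comparisons (1.02 and 0.69) and at 5 months (-0.31). Marker lists of other cell types are not plotted. Some had medians further from 0 (T and NK, 1.7 in WT over time and -0.88 at 5 months) and others nearer (hepatocyte, 0.18 and 0.17).

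Markers of other liver cells moved with some of these comparisons. The summed level of 10 macrophage markers ran from 361 to 465 CPM in WT and 408 to 476 CPM in KO at 2 months, and from 931 to 1103 CPM in WT and 526 to 642 CPM in KO at 5 months. Of these, 9 rose in WT over time (median log2 fold change 1.59), 5 rose and 2 fell in KO, and 8 were lower in KO at 5 months (median -0.86). T and NK markers summed to 3.50 to 3.91 CPM in WT at 2 months, 7.94 to 15.7 CPM in WT at 5 months and 4.04 to 10.0 CPM in KO at 5 months. Stellate markers summed to 627 to 775 CPM in WT and 489 to 557 CPM in KO at 5 months, with 4 of 8 lower in KO, and neutrophil markers to 8.29 to 14.1 and 4.48 to 7.36 CPM, with 2 of 3 tested lower. Both sums were already lower in KO at 2 months, when 0 ribosomal protein genes were called. Stellate markers then summed to 570 to 722 CPM in WT and 430 to 446 CPM in KO, and neutrophil markers to 6.82 to 9.62 and 4.96 to 6.07 CPM. No marker of these lists was at 0 in all libraries. The part of these cells in the family's change was not tested.

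Hepatocyte markers summed to 59513 to 74874 CPM in WT and 77677 to 92914 CPM in KO at 2 months. At 5 months they summed to 59853 to 63550 CPM in WT and 78081 to 89843 CPM in KO. Every KO sum was above every WT sum, while 0 of 10 markers were called at 2 months (median 0.35). At 5 months 3 of 10 were higher in KO, among them Alb (0.64, adjusted p = 0.00121). Over the 10 markers the median was then 0.17, with 7 values above 0 and 3 below. Most of the sum was Alb, with means of 36942 CPM in WT and 57050 CPM in KO at 5 months, so the sums mainly follow that gene. The part of hepatocytes in the family's change was not tested. Of 8 endothelial markers, 5 were lower and 1 higher over time in WT, and 6 were lower and 1 higher in KO. At 5 months 4 were lower in KO and 0 higher. Of all genes, 22.7% were lower over time in WT, 22.2% in KO, and 9.51% were lower in KO at 5 months. Cholangiocyte markers summed to 149 to 294 CPM in WT and 223 to 266 CPM in KO at 5 months, and 1 of 6 was higher in KO. B cell markers had a median sum of 27.6 CPM in WT and 40.6 CPM in KO, with 1 of 5 higher and 2 lower. The 1 higher was Ighm, which made up most of the sum (means of 17.0 CPM in WT and 38.2 CPM in KO). Of the erythroid markers 2 of 5 rose in WT and 4 of 6 in KO. The share of counts on mitochondrial genes was 4.702% to 6.437% over all libraries, lower in all 5-month libraries than in all 2-month libraries of the same genotype in both WT and KO, and its part in the change was not tested.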

How the data were processed

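Gene counts in 54532 rows were deposited by the authors for 12 liver libraries, in 4 groups of 3 set by the labels. The counts are not normalized. The submitters' processing notes name HISAT2 and mm10, while the study's methods name STAR. The counter, annotation release and strand setting are not given in the sources used here, so reads of gene copies and antisense partners may be divided in ways that cannot be seen. The members and the lists were chosen with earlier results of these data known.

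Fits were made with edgeR 4.0.16 (R 4.3.3), by robust quasi-likelihood tests after filterByExpr and TMM scaling. Each pair of groups had its own 6 libraries, and the difference between times used all 12. Adjusted p-values are Benjamini-Hochberg values over every tested gene, and called means under 0.05. SE and 95% intervals come from the same fits. CPM are counts scaled by TMM over the 12 libraries. The fits were tested on simulated data.

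Genes were named by rule: in each pairwise comparison the 5 largest called rises and falls, the 3 highest and lowest levels per kb, genes with second roles, the members that the study's supplementary text names, copies with an l suffix, and from each list the 3 largest called. Genes outside it are marked as chosen after their values were seen.

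Same-numbered KO and WT libraries at 2 months deviated together (r of 0.218, 0.323 and 0.14 over the 3 pairs), each above 0.1. In no other comparison were all 3 pairs above 0.1: r was 0.239, 0.186 and 0.0198 in WT over time, -0.0394, 0.216 and -0.0216 in KO over time, and -0.172 to -0.0586 at 5 months. Pairs with different numbers ran from -0.273 to 0.113 at 2 months and reached 0.266 in WT over time and 0.223 in KO over time. Whether equal numbers mark paired libraries was not tested. A replicate block left the 2-month calls at 0. Totals limit precision by counting error only. Alternatives were DESeq2 1.42.0, other scalings and filters, the block, 1 joint fit, added pseudogene counts and leaving out each library. A few genes are not reported here by name.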

Additional observations from a re-analysis of the deposited data

Results flagged for a closer look

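For 13 ribosomal protein genes the KO effect differed between the times by the test of the difference itself, and in each the log2 fold change of KO against WT was lower at 5 than at 2 months. The difference was -0.57 for Rplp1, -0.57 for Rps15a, -0.57 for Rpl36a, -0.50 for Rpl26, -0.48 for Rpsa, -0.47 for Rpl31, -0.47 for Rps24, -0.46 for Rps14, -0.45 for Rpl11, -0.41 for Rpl32, -0.38 for Rps15, -0.37 for Rps3a1 and -0.35 for Rps7. The calls of Rpl32, Rps3a1, Rps7, Rps14 and Rps15 were lost with a replicate block. Groups of 3 are too small for a test of single outlying libraries.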

How the results depend on the processing

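Of the counts, medians and shares that answer a comparison, 276 alternative values were labelled the same and 36 moved. A count was labelled the same when equal to the main count or near it in ratio. A median or share was labelled the same when it differed by less than the SD over replicates. The label is loose for counts: 44 genes lower at 5 months without KO replicate 3 were labelled the same as 65. At 2 months, 1 gene was lower with all 12 libraries in 1 fit and 2 at an unadjusted p under 0.05, and the median was -0.084 with library size alone, -0.049 over genes with under 10% shared windows and -0.029 to 0.036 leaving out 1 library. At 5 months library size alone gave a median of -0.383, and -0.362 was that over genes with few shared windows. In WT over time, 1 gene was lower at an adjusted p under 0.1 and 1 at an unadjusted p under 0.05, with medians of 0.942 by library size alone and 1.089 over genes with few shared windows. In KO over time, 0 genes were lower in the joint fit and 0 of those with few shared windows, 0 to 1 leaving out 1 library, and the medians were 0.632 and 0.796. For the difference between times, the count lower was 37 with DESeq2, 34 at an adjusted p under 0.1, 58 at an unadjusted p under 0.05, 28 without a filter, 1 among the 12 genes with few shared windows, and 5 to 33 leaving out 1 library. The rise in share of counts was 0.8105 percentage points in WT and 0.4483 in KO with nuclear protein-coding counts as the total. The medians of genes of similar level were 0.38 and 0.30 by coding length. With pseudogene counts added, Rps10 reversed, to -0.41 at 5 months, 0.53 in WT and 0.21 in KO. Apart from the values that follow from fewer genes or samples or another threshold, the cause was not tested.

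A replicate block was tried because same-numbered libraries deviated together at 2 months, which does not establish a pairing. With it, 0 genes were called at 2 months, 59 were lower at 5 months, 76 rose in WT and 71 rose in KO. In the difference between times 9 were lower. Counts limit only the scarce genes: 57 of the 80 had over 1000 counts in every library.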
